A study of Arabidopsis with 12 samples.

Results

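A set of 59 array features was studied that lay low in seedlings of the jasmonate receptor mutant coi1-2 whether or not methyl jasmonate (MeJA) had been given. The features are probe sets of the Affymetrix ATH1 array, which measures transcripts of Arabidopsis thaliana, and the 59 came from 22746 probe sets that are not controls. Members were chosen on group means of log2 values. The mean in coi1-2 had to be at least 2-fold lower than in Col-0 after MeJA and after mock treatment, that is, a log2 difference of -1 or less in each. The ein3 eil1 mock mean had to lie above -0.5 relative to Col-0 mock, and the Col-0 MeJA mean less than 1 above Col-0 mock. Of 60 probe sets that met these limits, 1 was left out by choice, that of BCAT4, an aminotransferase of methionine-derived glucosinolate synthesis.

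Whole 7-day-old seedlings in the Columbia background were compared 4 h after treatment, with 100 µM MeJA or with the ethanol solvent alone as mock. Of the 3 genotypes, coi1-2 is named by the labels as a coi1 mutant and ein3 eil1 as a mutant in both genes, with no allele numbers for EIN3 and EIL1, and Col-0 is the wild type. Every genotype was measured on 2 arrays per treatment, 12 arrays in 6 groups. According to its design text, the study asked how far jasmonate-regulated transcripts depend on COI1 or on EIN3 and EIL1.

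COI1 is the F-box protein that binds the active jasmonate together with JAZ repressors, so that the repressors are destroyed and jasmonate-responsive transcription begins. EIN3 and EIL1 are transcription factors that carry out the ethylene response, and JAZ proteins are known to bind and repress them. Jasmonate is known in Arabidopsis seedlings for turning on defence, among it glucosinolate synthesis, protease inhibitors, small cysteine-rich peptides and the endoplasmic reticulum bodies of the epidermis and root that store the beta-glucosidase PYK10.

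The values were log2 expression levels with array medians between 5.22 and 5.39. Replicate arrays correlated across all features at 0.9898 for ein3 eil1 MeJA to 0.9961 for coi1-2 MeJA. Whether replicates came from separate cultures is not stated in the labels, and the p-values therefore reflect the spread between arrays, which may be technical. EIN3 had log2 levels of 6.03 and 5.91 in ein3 eil1 MeJA and of 5.95 and 6.25 in ein3 eil1 mock, against 9.52 and 9.50 in Col-0 MeJA and 9.59 and 9.50 in Col-0 mock, which fits the genotype labels. Values for COI1 and EIL1 were not used here. Organ markers served to check the tissue label. RCA, the Rubisco activase of green tissue, had log2 levels between 12.47 and 12.77 on every array, and the root beta-glucosidase PYK10 between 11.23 and 12.72.

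Of the 59 members, 23 carried 1 gene name and 36 had none in the annotation used here, while 0 matched several genes. Only 3 of the 23 had a symbol (GSTU20, NAI2 and scpl29) and 20 were known by locus code. In 2 members the probe set type is shared by near-identical transcripts, whose signals cannot be told apart. The 23 named genes lay on all 5 chromosomes, with 8 on chromosome 4, 6 on chromosome 5, 4 on chromosome 1, 3 on chromosome 3 and 2 on chromosome 2. None of them were adjacent in the gene order of the TAIR10.1 assembly, and the closest, AT4G21870 and AT4G22212, lay 49 genes apart. By annotation the named members included 2 jacalin-related lectins, 2 members of the protease inhibitor and lipid-transfer family, 2 TRAF-like proteins and 2 small cysteine-rich peptides. The others were mostly enzymes of specialised metabolism and the cell wall or genes of unknown role.

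Because the coi1-2 against Col-0 differences chose the members, these differences are described and not tested. The coi1-2 minus Col-0 difference had a median of -1.47 after MeJA (-3.57 to -1.04) and of -1.52 after mock (-3.84 to -1.02). Over all features the same medians were -0.00 and -0.03. Members with a difference of -2 or less numbered 11 after MeJA and 19 after mock, and 9 were that low under both treatments. Every coi1-2 array lay below every Col-0 array of the same treatment in 59 of 59 members, under MeJA as under mock. Across all features this held for 25.5% under MeJA and 28.6% under mock, and since the rule used these contrasts nothing is read from the comparison. The gap to Col-0 was smaller after MeJA than after mock in 33 members and larger in 26. In all 59 the coi1-2 MeJA mean was below the Col-0 mock mean, which the limits of the rule fix in advance.

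**Figure D1:**
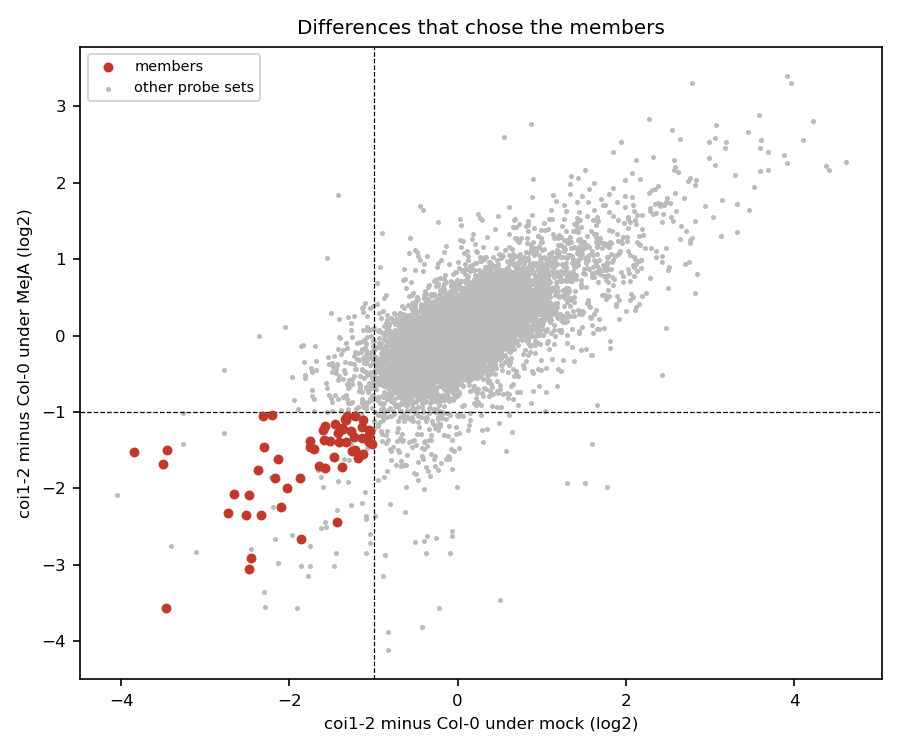
Each point is 1 probe set, placed by its coi1-2 minus Col-0 difference after mock (horizontal axis, log2) and after MeJA (vertical axis, log2), with members in red, other probe sets in grey and dashed lines at -1. Members fill the lower left corner, and the grey points there failed the limits on ein3 eil1 or on the Col-0 response, or were left out.

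The lectin AT5G35940 and the lipid-recognition protein AT5G23840 had the lowest mean differences of the named members. AT5G35940, a jacalin-related lectin of the type that binds mannose, had log2 levels of 5.56 and 5.66 in coi1-2 MeJA and 5.32 and 5.83 in coi1-2 mock. It reached 9.39 and 9.78 in ein3 eil1 MeJA and 10.20 and 10.21 in ein3 eil1 mock, against 8.91 and 8.41 in Col-0 MeJA and 8.03 and 8.08 in Col-0 mock. The 3 genotypes did not overlap: coi1-2 was 8.30-fold lower than Col-0 after MeJA and 5.59-fold lower after mock, and ein3 eil1 was the highest of all. AT5G23840, which has the MD-2-related domain that binds lipids, stood at 7.01 and 6.26 in coi1-2 MeJA and 6.44 and 6.41 in coi1-2 mock. Its levels were 10.39 and 10.16 in ein3 eil1 MeJA and 11.14 and 11.01 in ein3 eil1 mock, against 9.68 and 9.41 in Col-0 MeJA and 8.98 and 8.78 in Col-0 mock. The same order of genotypes was seen, with coi1-2 at 7.51-fold below Col-0 after MeJA and 5.48-fold below after mock.

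The other lectin, AT1G52100, had a gap of nearly the same size under both treatments. Its log2 levels were 6.58 and 6.79 in coi1-2 MeJA against 8.71 and 8.38 in Col-0 MeJA, and 6.09 and 6.46 in coi1-2 mock against 8.0 and 8.29 in Col-0 mock. That is a 3.63-fold lower level after MeJA and a 3.66-fold lower level after mock. In ein3 eil1 it had 8.46 and 8.78 after MeJA, overlapping Col-0 MeJA, and 8.87 and 8.83 after mock, above both Col-0 mock arrays.

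Both small cysteine-rich peptides were low in coi1-2. AT4G22212, a defensin-like protein, had 9.86 and 9.85 in coi1-2 MeJA and 9.14 and 9.31 in coi1-2 mock, against 12.37 and 11.999 in Col-0 MeJA and 11.88 and 12.03 in Col-0 mock. It was thus 5.01-fold lower after MeJA and 6.64-fold lower after mock, with all 4 coi1-2 arrays far above the array medians. The ein3 eil1 levels of 12.60 and 12.77 after MeJA and 12.90 and 12.96 after mock lay above those of Col-0 under either treatment. AT2G43535, a knottin of the scorpion toxin-like family, had 8.13 and 7.80 in coi1-2 MeJA and 7.62 and 7.45 in coi1-2 mock, against 9.87 and 9.17 in Col-0 MeJA and 8.48 and 8.84 in Col-0 mock. Its gap was 2.93-fold after MeJA and 2.18-fold after mock, the Col-0 mean having been 0.86 (log2) higher with MeJA than with mock. The plant defensins PDF1.2 and PDF1.2b, known as targets of the joint jasmonate and ethylene pathway, were not members and are given with the gene lists.

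The protease inhibitor and lipid-transfer family was represented by AT4G22610 and AT3G22570. AT4G22610 had log2 levels of 9.04 and 8.75 in coi1-2 MeJA and 7.83 and 7.90 in coi1-2 mock, against 11.07 and 10.89 in Col-0 MeJA and 10.47 and 10.22 in Col-0 mock. It lay 4.24-fold below Col-0 after MeJA and 5.56-fold below after mock. AT3G22570 differed less between coi1-2 and Col-0 and more between ein3 eil1 and Col-0. Its coi1-2 levels were 7.06 and 7.16 after MeJA and 6.38 and 7.11 after mock, and its Col-0 levels 8.93 and 8.05 after MeJA and 8.28 and 8.25 after mock. In ein3 eil1 it had 9.71 and 9.73 after MeJA and 10.85 and 10.97 after mock, above all Col-0 arrays.

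The 36 members without a gene name could not be placed on the gene lists. Among the named ones GSTU20, a tau-class glutathione S-transferase linked to the synthesis of methionine-derived glucosinolates, was the only one on a glucosinolate list. It had 8.46 and 8.41 in coi1-2 MeJA and 6.83 and 6.49 in coi1-2 mock, against 9.24 and 9.75 in Col-0 MeJA and 8.87 and 9.08 in Col-0 mock. The gap was 2.09-fold after MeJA, close to the limit of the rule, and 4.98-fold after mock. AT4G15390, an acyltransferase of the BAHD family, had a similar pair of gaps, 2.06-fold after MeJA and 4.63-fold after mock. Unlike GSTU20, its Col-0 mean was lower with MeJA than with mock, by -0.64 (log2), the lowest Col-0 difference among the named members. AT4G15390 had 8.17 and 8.42 in coi1-2 MeJA and 7.75 and 7.78 in coi1-2 mock, against 9.68 and 8.99 in Col-0 MeJA and 10.02 and 9.93 in Col-0 mock. The Col-0 differences of AT5G54970, AT5G01075 and AT4G16140, the next lowest, were -0.06, 0.06 and 0.21.

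AT4G11190, a dirigent protein of the family that steers the coupling of lignans and lignin precursors, showed the opposite dependence on treatment. Its levels were 5.40 and 5.03 in coi1-2 MeJA and 5.22 and 5.44 in coi1-2 mock, against 7.59 and 7.73 in Col-0 MeJA and 6.54 and 6.97 in Col-0 mock. The gap was 5.46-fold after MeJA and 2.69-fold after mock. The Col-0 mean was 0.91 (log2) higher with MeJA than with mock, and the coi1-2 mean differed by -0.11. AT1G30760, a berberine bridge enzyme-like oxidase, was lower in coi1-2 by 2.58-fold after MeJA and 3.01-fold after mock. NAI2, which is needed to form endoplasmic reticulum bodies, had 9.22 and 9.38 in coi1-2 MeJA and 8.59 and 8.29 in coi1-2 mock, against 10.85 and 10.68 in Col-0 MeJA and 10.14 and 10.25 in Col-0 mock. Its gap was 2.76-fold after MeJA and 3.38-fold after mock.

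The TRAF-like genes AT5G26260 and AT3G20370 carry the MATH domain. AT5G26260 had 8.74 and 8.63 in coi1-2 MeJA and 8.04 and 7.86 in coi1-2 mock, against 10.40 and 10.22 in Col-0 MeJA and 10.12 and 10.05 in Col-0 mock. AT3G20370 had 9.07 and 9.10 in coi1-2 MeJA and 8.08 and 8.36 in coi1-2 mock, against 10.35 and 10.30 in Col-0 MeJA and 9.75 and 9.89 in Col-0 mock. For both, the coi1-2 MeJA level lay above that of coi1-2 mock, while the rule itself places the coi1-2 MeJA mean below that of Col-0 mock.

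**Figure D2:**
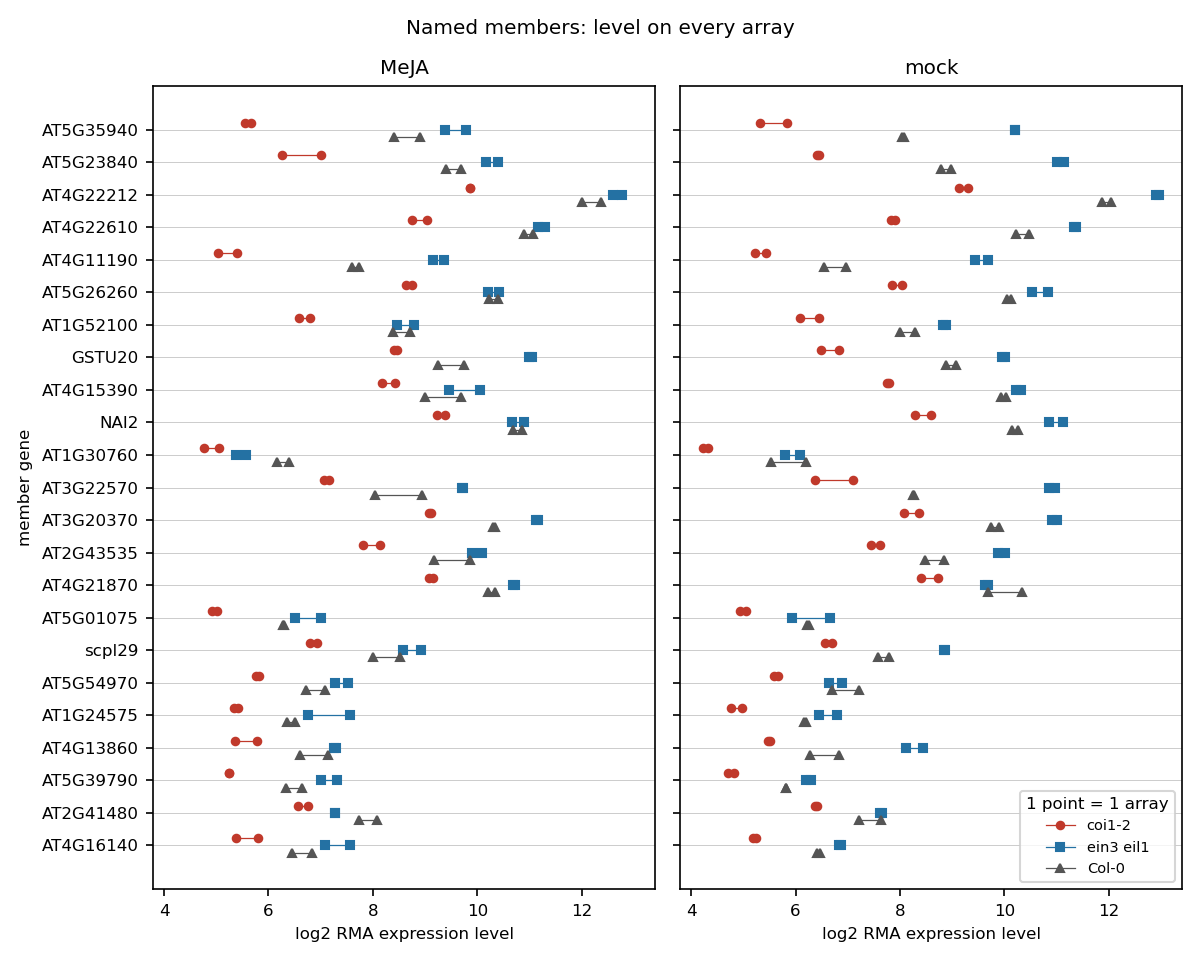
Log2 expression level (horizontal axis) of the 23 named members on every array, after MeJA (left panel) and after mock (right panel), with coi1-2 in red, ein3 eil1 in blue and Col-0 in grey, and a line joining the 2 arrays of a group. The coi1-2 points lie left of the Col-0 points in every row of both panels, and in AT4G11190 the 2 ein3 eil1 arrays lie to the right of both.

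The remaining named members had gaps between 2.05-fold and 2.74-fold. AT4G21870, a chaperone of the HSP20-like family, had 9.08 and 9.15 in coi1-2 MeJA and 8.41 and 8.72 in coi1-2 mock, against 10.21 and 10.33 in Col-0 MeJA and 9.69 and 10.34 in Col-0 mock. The serine carboxypeptidase-like protein scpl29 had 6.80 and 6.93 in coi1-2 MeJA and 6.70 and 6.56 in coi1-2 mock, against 8.0 and 8.52 in Col-0 MeJA and 7.78 and 7.58 in Col-0 mock. Levels of scpl29 in ein3 eil1 were 8.93 and 8.57 after MeJA and 8.85 and 8.86 after mock, above all 4 Col-0 arrays. For AT5G39790, known as PTST and involved in starch synthesis in plastids, coi1-2 had 5.25 and 5.24 after MeJA and 4.70 and 4.82 after mock. Col-0 had 6.33 and 6.65 after MeJA and 5.82 on both mock arrays. The glycine-rich RNA-binding protein AT4G13860 had 5.78 and 5.35 in coi1-2 MeJA and 5.52 and 5.47 in coi1-2 mock, against 7.13 and 6.59 in Col-0 MeJA and 6.83 and 6.28 in Col-0 mock. For 4 genes of no certain role, AT5G01075, AT5G54970, AT1G24575 and AT4G16140, the coi1-2 minus Col-0 differences were -1.32, -1.11, -1.06 and -1.06 after MeJA and -1.23, -1.33, -1.31 and -1.22 after mock. The 36 members without a gene name had a median coi1-2 minus Col-0 difference of -1.50 (-3.57 to -1.09) after MeJA and of -1.52 (-3.84 to -1.02) after mock, and the 23 named ones of -1.37 (-3.05 to -1.04) and -1.52 (-2.73 to -1.04). The unnamed members thus hold the lowest values under both treatments.

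At the edge of the rule, the named members with the weaker of their 2 gaps closest to -1 were AT2G41480 (peroxidase 25, -1.04), AT4G15390 (-1.04), scpl29 (-1.05), AT1G24575 (-1.06) and AT4G13860 (-1.06). Just outside lay AT1G66800 and TBL45 at -0.99, PMEAMT at -0.98, and AT1G75460 and AT5G55220 at -0.97. The step across the limit was smaller than the spread of these levels between replicate arrays, whose median gap over members was 0.22 (log2) in coi1-2 mock and 0.29 in Col-0 MeJA. Several members were dim in coi1-2: the coi1-2 mean was below the array medians in 14 members after MeJA and in 19 after mock. No detection calls were used, so a low level there may lie near background.

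The response of coi1-2 itself to MeJA was not a contrast of the rule, although the rule reads its 4 arrays through the differences from Col-0. In coi1-2, 13 of 59 members (22%) rose with MeJA by limma with Benjamini-Hochberg adjustment over all features, against 1.54% of all features. None fell, against 0.998% of all features. Since the 4 arrays helped to choose the members, these shares and the p-values of the members are not independent of the rule, and nothing is read from their distance to the background. At an unadjusted p under 0.05, 28 members were higher and 1 was lower. The share of all features under that unadjusted limit was not counted, so nothing is read from these counts. After adjustment, limma with trend and robust moderation or with array weights called 1 lower. The median coi1-2 response over the members was 0.41 (log2), and it was -0.00 over all features. Of the 3 measured root marker genes, PYK10 rose as well in coi1-2, by 0.74 ± 0.13 (limma adjusted p = 0.00671), and EXPA7 (0.39 ± 0.16, 0.356) and AT5G48940 (0.01 ± 0.12, 0.989) were not called. The mean log2 level of these 3 genes was 7.62 to 7.63 in coi1-2 MeJA against 7.24 to 7.25 in coi1-2 mock, and its part in the members' responses was not tested.

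GSTU20 rose by 1.78 ± 0.17 (log2, SE, n = 2 arrays a group, limma adjusted p = 0.000132), and both coi1-2 MeJA arrays lay above both coi1-2 mock arrays. AT4G22610 rose by 1.03 ± 0.14 (limma adjusted p = 0.00139) and AT3G20370 by 0.87 ± 0.13 (limma adjusted p = 0.00216). NAI2 rose by 0.86 ± 0.15 (limma adjusted p = 0.00872), AT5G26260 by 0.74 ± 0.14 (limma adjusted p = 0.0145) and AT4G22212 by 0.64 ± 0.14 (limma adjusted p = 0.0363). These 6 were all the named members called, and in each the MeJA and mock arrays of coi1-2 did not overlap. Of the 7 unnamed ones called, 249866_at and 251524_at, chosen after their values were seen, had the largest responses. The probe set 249866_at had 7.91 and 8.05 in coi1-2 MeJA against 6.18 and 6.14 in coi1-2 mock, a response of 1.82 ± 0.12 (limma adjusted p = 6.51e-06). The probe set 251524_at had 6.37 and 6.48 in coi1-2 MeJA against 5.07 and 5.02 in coi1-2 mock, a response of 1.38 ± 0.14 (limma adjusted p = 0.000197). In Col-0 the levels of 249866_at were 9.61 and 9.72 after MeJA and 9.67 and 9.64 after mock. That the coi1-2 MeJA mean lay below these was fixed by the rule.

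Members such as the lectins AT5G35940 and AT1G52100 and the dirigent protein AT4G11190 were not called in coi1-2, with responses of 0.03 ± 0.20, 0.41 ± 0.18 and -0.11 ± 0.18. The count of 13 depended on single arrays: it was 7 without coi1-2 mock replicate 2 and 8 without coi1-2 MeJA replicate 1. The calls of GSTU20, AT4G22610, AT3G20370, 249866_at and 251524_at passed the threshold whichever array was left out. NAI2 lost its call without coi1-2 mock replicate 2 (limma adjusted p = 0.0981), coi1-2 MeJA replicate 1 (0.051) or coi1-2 MeJA replicate 2 (0.107). AT5G26260 lost it without the same 3 arrays (0.123, 0.166 and 0.0735), and AT4G22212 without any of the 4 coi1-2 arrays (0.0863 to 0.254) or either ein3 eil1 mock array (0.0598).

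The ein3 eil1 MeJA arrays were the only ones the rule did not read, and the ein3 eil1 mock arrays entered it through a lower limit. With MeJA, 9 of 59 members (15.3%) rose in ein3 eil1 and 5 (8.47%) fell, by limma with Benjamini-Hochberg adjustment, against 1.64% and 2.59% of all features. At an unadjusted p under 0.05 these were 19 and 17 members, without a count of all features under that limit to set beside them. The median ein3 eil1 response over the members was 0.09 (log2) and that over all features 0.01. Rising and falling members were thus mixed in this mutant. The lower limit on ein3 eil1 mock keeps out features that were low there, so these shares are not fully independent of the rule either. Members were also brighter than most features. Their median level was 9.03 in ein3 eil1 MeJA and 8.85 in ein3 eil1 mock, against 5.29 and 5.38 over all features. The part of this level difference in the shares was not tested.

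Of the named members, GSTU20, AT4G21870 and AT5G39790 rose in ein3 eil1. GSTU20 had 11.04 and 10.99 in ein3 eil1 MeJA against 9.96 and 10.01 in ein3 eil1 mock, a response of 1.02 ± 0.17 (limma adjusted p = 0.00458). AT4G21870 had 10.68 and 10.71 in ein3 eil1 MeJA against 9.68 and 9.63 in ein3 eil1 mock, a response of 1.05 ± 0.18 (limma adjusted p = 0.00645). For AT5G39790 the levels were 7.31 and 7.00 in ein3 eil1 MeJA against 6.29 and 6.21 in ein3 eil1 mock. Its response was 0.90 ± 0.14 (limma adjusted p = 0.0035). GSTU20 was also one of the 3 members called higher in both mutants, the others being unnamed, 249866_at among them with an ein3 eil1 response of 0.58 ± 0.12 (limma adjusted p = 0.0148).

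The named members that fell in ein3 eil1 were AT3G22570, AT4G13860 and AT5G23840, and all 3 were higher in ein3 eil1 mock than in any Col-0 array. AT3G22570 fell by -1.19 ± 0.26 (limma adjusted p = 0.0205). AT4G13860 had 7.26 and 7.30 in ein3 eil1 MeJA against 8.11 and 8.43 in ein3 eil1 mock, a response of -0.99 ± 0.22 (limma adjusted p = 0.0231). AT5G23840 fell by -0.80 ± 0.20 (limma adjusted p = 0.0474), just past the threshold. The unnamed 249203_at and 249773_at, singled out after their values were seen, fell as well. The probe set 249203_at had 8.28 and 8.34 in ein3 eil1 MeJA against 9.44 and 9.64 in ein3 eil1 mock, a response of -1.24 ± 0.23 (limma adjusted p = 0.00878). In 249773_at the levels were 7.17 and 6.96 in ein3 eil1 MeJA against 8.38 and 8.0 in ein3 eil1 mock, a response of -1.12 ± 0.19 (limma adjusted p = 0.00488). On the list of root marker genes, 2 of the 3 measured genes also fell in ein3 eil1 with MeJA, EXPA7 by -0.88 ± 0.16 (limma adjusted p = 0.0083) and AT5G48940 by -0.61 ± 0.12 (limma adjusted p = 0.0138). The other, PYK10, was not called (-0.14 ± 0.13, limma adjusted p = 0.683). AT5G48940 had 3.87 and 4.02 in ein3 eil1 MeJA and 4.46 and 4.65 in ein3 eil1 mock. These levels were below the array medians and may lie near background. The mean log2 level of the 3 was 7.42 to 7.60 in ein3 eil1 MeJA against 8.03 to 8.07 in ein3 eil1 mock, and its part in the members' responses was not tested.

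The count of 9 higher became 3 without ein3 eil1 mock replicate 1, 3 without ein3 eil1 mock replicate 2 and 5 without ein3 eil1 MeJA replicate 1. The count of 5 lower became 0, 1 and 2 without the same arrays. GSTU20 lost its call without ein3 eil1 mock replicate 1 (limma adjusted p = 0.0585), and AT4G21870 without either ein3 eil1 mock array (0.0597 and 0.0586). AT3G22570 and AT4G13860 lost theirs without either ein3 eil1 mock array or ein3 eil1 MeJA replicate 1 (0.0708 to 0.198). AT5G23840 lost its call without any 1 of 10 arrays, of any genotype (0.0548 to 0.266). AT5G39790 kept its call whichever array was left out. Of the unnamed ones, 249203_at lost its call without either ein3 eil1 mock array (0.0542 and 0.0867), 249773_at without ein3 eil1 mock replicate 1 (0.0788), and 249866_at without either ein3 eil1 mock array or ein3 eil1 MeJA replicate 1 (0.0823 to 0.106).

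**Figure D3:**
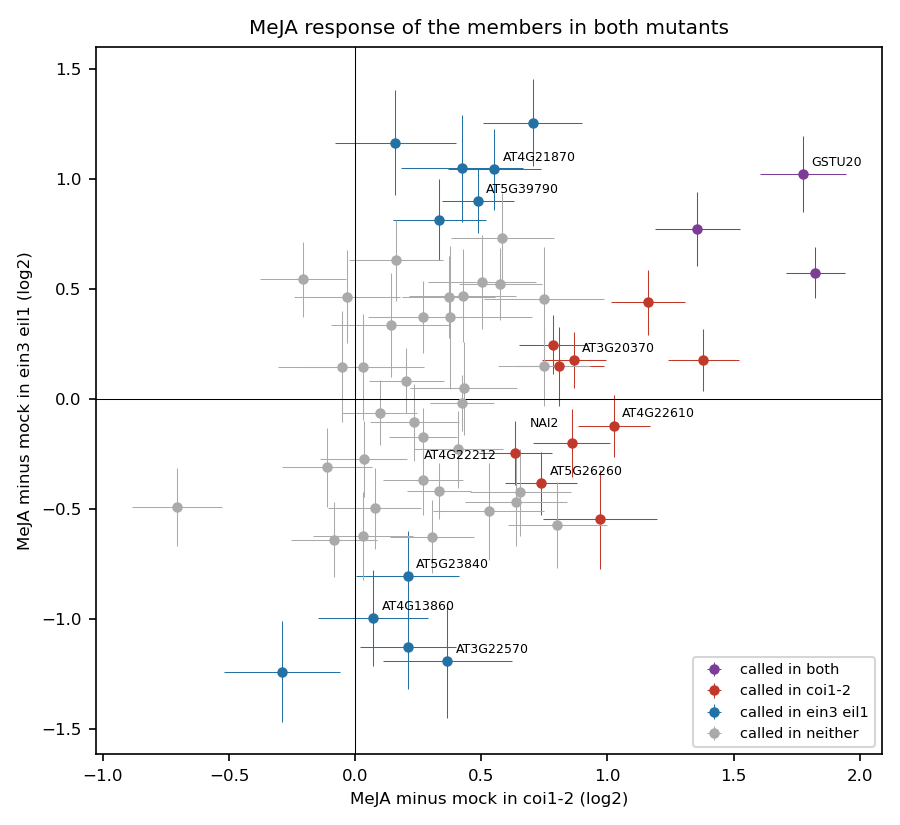
MeJA minus mock of the 59 members in coi1-2 (horizontal axis, log2) and in ein3 eil1 (vertical axis, log2), with bars of 1 SE from limma and colours for members called in both mutants, in coi1-2, in ein3 eil1 or in neither (adjusted p under 0.05). The members called in coi1-2 lie to the right, and those called in ein3 eil1 lie at the top and at the bottom.

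The 2 mutants' responses were set against each other in the same model. Of the members, 4 of 59 (6.78%) had a higher response in coi1-2 than in ein3 eil1 by limma with Benjamini-Hochberg adjustment, against 0.229% of all features. None had a lower one, against 0.215% of all features. The rule read 6 of the 8 arrays in this contrast, all but those of ein3 eil1 MeJA, so the shares are not independent of how the members were chosen and nothing is read from their distance to the background. At an unadjusted p under 0.05 there were 32 with a higher and 2 with a lower response. All features were not counted under that limit, and the shares above belong to the adjusted p, so nothing is read from the 32 and 2. The difference had a median of 0.54 (log2) over the members and of -0.00 over all features, and 41 members had the higher mean response in coi1-2 against 18 with the lower. Root marker genes had differences in the same direction. EXPA7 had 1.26 ± 0.23 (limma adjusted p = 0.037), PYK10 0.88 ± 0.18 (0.0681) and AT5G48940 0.63 ± 0.17 (0.209), and their part in the members' differences was not tested.

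The difference was 1.25 ± 0.17 for 249866_at (limma adjusted p = 0.00787), 1.2 ± 0.20 for 251524_at (0.0253), 1.15 ± 0.20 for AT4G22610 (0.0324) and 1.12 ± 0.20 for AT5G26260 (0.0376). AT4G22610 did not pass the test in ein3 eil1, where its levels were 11.16 and 11.30 after MeJA against 11.34 and 11.36 after mock (-0.12 ± 0.14, limma adjusted p = 0.766). For AT5G26260 the ein3 eil1 levels were 10.20 and 10.41 after MeJA against 10.83 and 10.53 after mock (-0.38 ± 0.14, limma adjusted p = 0.196). GSTU20 (0.75 ± 0.24, limma adjusted p = 0.315) and NAI2 (1.06 ± 0.22, limma adjusted p = 0.0677) did not pass, so their responses are not shown to differ between the mutants. Of the members, 10 were called in coi1-2 only, 11 in ein3 eil1 only and 35 in neither. These counts do not show that the responses differ, since 4 members passed the test of the difference. The count of 4 was 1 without coi1-2 mock replicate 1 or 2, coi1-2 MeJA replicate 1 or 2 or ein3 eil1 mock replicate 1, and 2 without ein3 eil1 MeJA replicate 1. The difference of 249866_at passed whichever array was left out, while 251524_at lost its call without any of the 4 coi1-2 arrays or ein3 eil1 mock replicate 1 (0.0881 to 0.152). After centring each array on its median 251524_at lost its call as well (0.059). AT4G22610 lost it without any 1 of 7 of the 8 arrays of the contrast (0.0521 to 0.189). AT5G26260 lost it without any 1 of 8 arrays, among them both Col-0 mock arrays (0.0595 to 0.224), and also after centring each array on its median (0.0574).

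Relative to Col-0, most members were higher in ein3 eil1, and this is described without a test because the rule set a lower limit on it under mock and read the Col-0 arrays. The ein3 eil1 minus Col-0 difference had a median of 0.63 (log2) after MeJA (-0.81 to 2.10) and of 0.70 after mock (-0.45 to 3.46), against 0.01 and -0.03 over all features. After MeJA 50 members had the higher mean in ein3 eil1, and after mock 47. At least 2-fold higher were 14 members after MeJA, against 1.27% of all features, and 22 after mock, against 2.84% of all features, with 11 under both. After MeJA all ein3 eil1 arrays lay above all Col-0 arrays in 46 members and below them in 6, against 21.9% and 20.1% of all features. Across the 59 members the differences after MeJA and after mock correlated at r = 0.641, a description of values that share the genotypes.

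The dirigent protein AT4G11190 had the largest difference of the named members under both treatments. It stood at 9.15 and 9.36 in ein3 eil1 MeJA against 7.59 and 7.73 in Col-0 MeJA, and at 9.68 and 9.44 in ein3 eil1 mock against 6.54 and 6.97 in Col-0 mock, differences of 1.59 and 2.80 (log2). AT3G22570 was higher by 1.23 after MeJA and 2.65 after mock. GSTU20 exceeded Col-0 by 1.52 after MeJA and 1.01 after mock, and AT3G20370 by 0.82 and 1.14. For the unnamed 249203_at the ein3 eil1 levels given above stood against 6.61 and 5.80 in Col-0 MeJA and 6.13 and 6.03 in Col-0 mock, differences of 2.10 and 3.46. AT5G26260, NAI2 and AT1G52100 were level with Col-0 after MeJA, at -0.01, 0.02 and 0.08, and higher after mock, at 0.60, 0.79 and 0.71.

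A few members went the other way. AT1G30760 had 5.57 and 5.38 in ein3 eil1 MeJA against 6.39 and 6.16 in Col-0 MeJA, a difference of -0.80, and overlapping levels after mock (6.08 and 5.80 in ein3 eil1, 5.52 and 6.21 in Col-0). Peroxidase 25 (AT2G41480) had 7.27 on both ein3 eil1 MeJA arrays against 7.74 and 8.09 in Col-0 MeJA, a difference of -0.64. In coi1-2 MeJA AT2G41480 had 6.75 and 6.57, and AT1G30760 5.05 and 4.77, so that coi1-2 remained the lowest genotype for both.

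**Figure D4:**
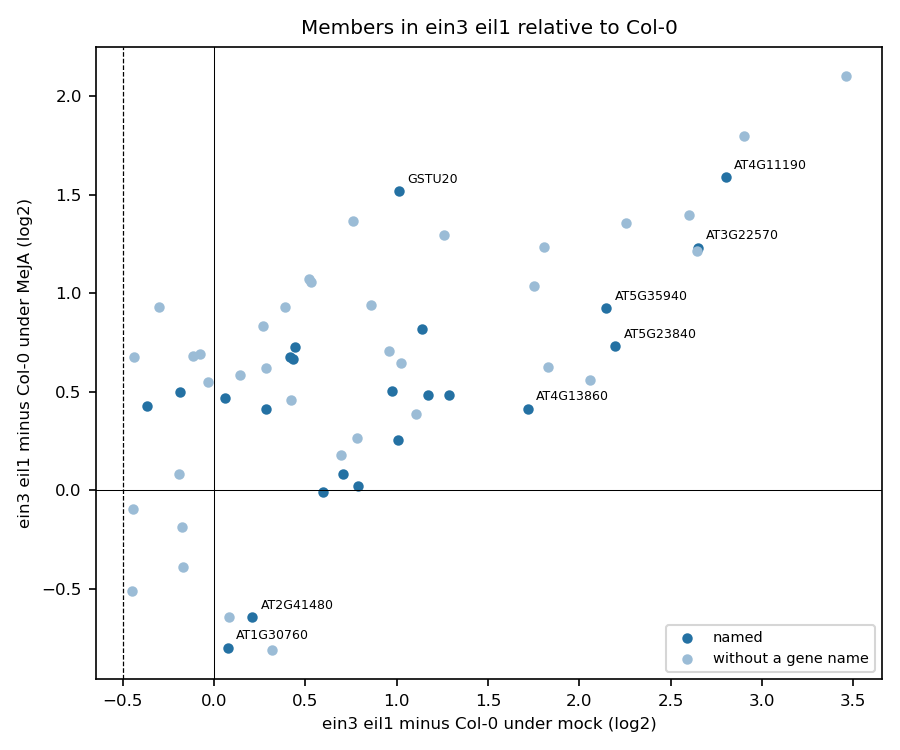
Each point is 1 member, placed by its ein3 eil1 minus Col-0 difference after mock (horizontal axis, log2) and after MeJA (vertical axis, log2), with named members dark, unnamed ones pale and a dashed line at the limit of -0.5 in the rule. AT4G11190 and AT3G22570 lie far to the upper right, and AT1G30760 and AT2G41480 lie below 0 after MeJA.

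Pathway lists placed few of the members, since many listed genes had no named probe set and the 36 unnamed members could not be matched to a list. On the list of 30 genes of methionine-derived (aliphatic) glucosinolate synthesis 5 were measured by name, GSTU20 and 4 others. BCAT4 met the limits of the rule and AT2G31790 was set aside with it, so their differences are given without a test. BCAT4 had 8.35 and 8.44 in coi1-2 MeJA against 10.42 and 10.54 in Col-0 MeJA, and 6.33 and 6.59 in coi1-2 mock against 10.40 and 10.62 in Col-0 mock. The coi1-2 minus Col-0 differences of BCAT4 were -2.09 (log2) after MeJA and -4.05 after mock, and those of AT2G31790, a UDP-glycosyltransferase of glucosinolate synthesis, -0.69 and -1.30. The other 2 genes were UGT74B1, also a glycosyltransferase, with -0.29 after MeJA and 0.49 after mock, and AOP3 with -0.23 and -0.05. Neither was called by limma with Benjamini-Hochberg adjustment, where 3.08% of all features were called lower and 4.15% higher in coi1-2 after MeJA, and 6.07% lower and 7.36% higher after mock. AOP3 was dim, at 3.74 to 4.17 in coi1-2 and Col-0, and may lie near background.

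Of 14 genes of sulfate uptake and assimilation, which supplies the sulfur of glucosinolates, 3 were measured by name and 0 were members. APS3, an ATP sulfurylase, was lower in coi1-2 by -0.96 ± 0.14 after MeJA (limma adjusted p = 0.000861) and -0.91 ± 0.14 after mock (limma adjusted p = 0.000817). SIR, the sulfite reductase, was lower only after mock (-0.46 ± 0.14, limma adjusted p = 0.0427), a call lost without Col-0 mock replicate 1 (0.304) and without each of 8 other arrays, and had -0.30 ± 0.14 after MeJA (0.244). APS4 was not called. The jasmonate synthesis and signalling list had 2 of 25 genes measured by name and 0 members, with OPCL1, a ligase of jasmonate synthesis, lower in coi1-2 after MeJA (-0.88 ± 0.14, limma adjusted p = 0.00208) and JMT not called. None of the 3 measured genes among 9 jasmonate-regulated storage and defence proteins were called in coi1-2 against Col-0. PDF1.2 had -1.09 ± 0.41 after MeJA (limma adjusted p = 0.157) and -0.14 ± 0.41 after mock (0.881), and PDF1.2b -0.91 ± 0.30 (0.104) and -0.60 ± 0.30 (0.241). The 3 measured of 12 flavonoid genes were not called either, and 0 of 15 indolic glucosinolate genes, 0 of 10 glucosinolate breakdown genes and 0 of 11 seed storage genes were measured by name. Some uncalled genes were dim: PDF1.2, LCR67, JMT and DFR had log2 levels of 3.45 to 4.85 in coi1-2 and Col-0, below the array medians of 5.22 to 5.39. Such levels may lie near background, so the lack of a call does not show the absence of a difference. In ein3 eil1 the levels of PDF1.2 lay above those of Col-0 by 4.34 (log2) after MeJA and 4.40 after mock. Those of PDF1.2b lay above Col-0 by 3.45 and 4.13, and these differences were not tested.

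Markers of the organs of the seedling were set beside the members. RCA, the only one of 13 green tissue genes measured by name, differed between coi1-2 and Col-0 by 0.09 ± 0.12 after MeJA (limma adjusted p = 0.786) and by -0.15 ± 0.12 after mock (limma adjusted p = 0.491). Among the root genes 3 of 13 were measured. PYK10 was lower in coi1-2 by -0.62 ± 0.13 after MeJA (limma adjusted p = 0.0103) and by -0.96 ± 0.13 after mock (limma adjusted p = 0.00033). EXPA7, an expansin of root hairs, was lower after mock (-0.86 ± 0.16, limma adjusted p = 0.00344) and had -0.49 ± 0.16 after MeJA (0.0944). AT5G48940 had 0.26 ± 0.12 after MeJA (limma adjusted p = 0.269) and -0.09 ± 0.12 after mock (0.715). Its levels of 3.88 to 4.29 in coi1-2 and Col-0 were below the array medians and may lie near background. The mean log2 level of the 3 genes was 7.62 to 7.63 in coi1-2 MeJA against 7.89 to 7.93 in Col-0 MeJA, and 7.24 to 7.25 in coi1-2 mock against 7.85 to 7.92 in Col-0 mock. PYK10 after both treatments and EXPA7 after mock were thus lower in coi1-2, as the members were, and their part in the result was not tested. PYK10 is also stored in the endoplasmic reticulum bodies that jasmonate is known to turn on, and whether its level follows root content was not tested. In whole seedlings fewer cells of a type and less RNA per cell cannot be told apart. The PYK10 call after MeJA was lost without coi1-2 MeJA replicate 2 (limma adjusted p = 0.113) or without replicate 1 of Col-0 MeJA (0.0867).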

How the data were processed

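Labelled RNA of 12 samples of whole seedlings was measured on Affymetrix ATH1 arrays. Per the labels' protocols the RNA was labelled after a manual for sense targets of whole transcripts, whereas ATH1 is a 3′ expression array. Which target was hybridised, and how this bears on the printed levels, is unknown here. The authors deposited log2 values for 22810 probe sets. Tools named in the submitters' processing notes are RMA, Partek and Affymetrix Expression Console, with no version or role given in the sources used here. This RMA method gives all arrays nearly the same distribution, which hides any change common to most transcripts. The 64 control probe sets were left out. Gene names came from the platform annotation (13513 probe sets with 1 gene, 503 with several, 8730 with none).

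A model of 6 group means was fitted with limma 3.58.1 (lmFit and eBayes, R 4.3.3), leaving 6 residual and 6.28 prior degrees of freedom. Adjustment was by Benjamini-Hochberg over 22746 probe sets, with a threshold of 0.05. Errors are limma's standard errors, and the 2 arrays a group limit precision. The steps were checked on simulated data. Python 3.11.15 with pandas 2.3.3 and matplotlib 3.10.9 did the rest.

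Members and gene lists were chosen with earlier results of these data known. Named were members with 1 gene name: the 12 with the lowest mean difference between coi1-2 and Col-0, all called in a mutant's response or the difference, the 4 with the lowest Col-0 response, 5 inside and 5 outside the limit, and listed genes with up to 6 others per list. Probe sets given by ID were chosen after their values were seen. The tests of coi1-2 against Col-0 for listed genes were added later. Alternatives were other normalizations, filters, moderation, fits, thresholds, a replicate block and leaving out each array. Promoters and proteins were not analysed here.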

Additional observations from a re-analysis of the deposited data

Results flagged for a closer look

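For 4 members the MeJA response differed between the mutants by the test of the difference itself, and this is what set them apart. The rule that chose the members read 6 of the 8 arrays of this test. The coi1-2 response exceeded that of ein3 eil1 by 1.25 (log2) in 249866_at, by 1.2 in 251524_at, by 1.15 in AT4G22610, a protease inhibitor and lipid-transfer family gene, and by 1.12 in the TRAF-like gene AT5G26260. In 249866_at the response was 1.82 in coi1-2 and 0.58 in ein3 eil1, both called by limma, and the difference kept its call under every alternative run. The responses of 251524_at were 1.38 in coi1-2 and 0.18 in ein3 eil1, those of AT4G22610 1.03 and -0.12, and those of AT5G26260 0.74 and -0.38, none of the 3 called in ein3 eil1. Of the 59 members 41 had the higher response in coi1-2, and all share the same 8 arrays. Groups of 2 arrays are too small for a test of outlying samples.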

How the results depend on the processing

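The number of members was 61 after quantile normalization and 60 after centring each array on its median, with 58 and 56 of them in the set of 59. With limits of -0.8 and -1.2 for the coi1-2 differences it was 100 and 39, and with an array left out 56 to 64. Members called higher in ein3 eil1 (9) numbered 4 in a fit of its own arrays, 4 at an adjusted p of 0.01 and 3 to 12 with an array left out. Those called lower (5) numbered 2 at 0.01 and 0 to 5 with an array left out. In coi1-2 the 13 higher became 7 to 15 with an array left out, and the 0 lower became 1 with trend and robust moderation, 1 with array weights and 0 to 1 with an array left out. The 4 differences became 2 after median centring, 10 with trend and robust moderation, 1 at 0.01 and 1 to 6 with an array left out, while those in the other direction were 0 under every alternative run. Median centring moved the median difference of all features to -0.11 (log2), and the members' median difference was then 0.43. With a replicate block the counts were 9 higher and 5 lower in ein3 eil1, 14 and 0 in coi1-2 and 6 and 0 for the difference. Deviations of same-numbered arrays correlated at -0.218 to 0.232 between groups. These weak values of mixed sign cannot settle whether arrays of the same number were handled together. Over 21 calls of members given by name or ID, 441 values under alternatives kept their direction; 368 passed the threshold and 73 did not. Over 7 calls of listed genes in coi1-2 against Col-0, an alternative set chosen after seeing the data, 131 of 147 passed and 0 changed direction. Some alternatives had fewer arrays or a stricter threshold, and the cause of these shifts was not tested.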

Other observations

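NAI2 belongs to the machinery of endoplasmic reticulum bodies, and 18 genes of these bodies and of the PYK10 complex were listed after the members' names and values had been seen, so their values are given without a test. By name 7 were measured, NAI2 and 6 others. JAL33 and JAL34, jacalin-related lectins that bind the PYK10 complex, were lower in coi1-2 than in Col-0 by -0.89 and -0.80 (log2) after MeJA and by -0.87 and -1.02 after mock. JAL34 had 11.15 and 10.99 in coi1-2 MeJA against 11.88 and 11.85 in Col-0 MeJA, and 10.25 and 10.15 in coi1-2 mock against 11.27 and 11.17 in Col-0 mock, so the genotypes did not overlap. JAL33 had 11.01 and 10.75 in coi1-2 MeJA against 11.83 and 11.71 in Col-0 MeJA, and 10.17 and 10.21 in coi1-2 mock against 11.04 and 11.07 in Col-0 mock. The transcription factor NAI1, which controls endoplasmic reticulum bodies, had differences of -0.72 after MeJA and -0.40 after mock. PYK10, their main beta-glucosidase, had -0.62 and -0.96. The related JAL22 had -0.35 after MeJA and -0.20 after mock, with overlapping arrays in both comparisons, and JAL23 -0.08 and -0.11. JAL23 was dim in coi1-2 and Col-0, at 3.33 to 3.66, and may lie near background there.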
